A study of Homo sapiens with 4 samples.

Results

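Tight junctions are the belts of adhesion that seal neighbouring epithelial cells together, and 9 of the 58735 genes listed in the deposited tables, chosen by symbol as core tight junction components, are described here. They comprise the claudins CLDN1, CLDN4 and CLDN7, the MARVEL-domain proteins OCLN and MARVELD2, the adhesion molecule F11R, and the cytoplasmic plaque proteins TJP1, TJP3 and CGN. Their RNA was measured by RNA-seq in HaCaT, an immortalised human keratinocyte line in established use, after lipid transfection with negative control siRNA (siControl) or with siRNA against ALKBH5 (siALKBH5), the enzyme that removes the m6A methyl mark from RNA. Each group had 2 libraries, both groups were wild type, and all cells came from 1 line. The labels do not say whether the libraries of a group were separate cultures, so p-values measure only the spread between these libraries, which may be technical. They do not say either which of the study's ALKBH5 siRNAs was used. In all libraries the RNA was enriched by its poly-A tail, and m6A was not measured in these data. The comparison asks how the transcripts of the junction differed when ALKBH5 was depleted.

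Claudins are small membrane proteins whose outer loops meet those of the next cell and set which ions and solutes pass between the cells. Occludin, tricellulin (the product of MARVELD2) and junctional adhesion molecules lie in the same strands or beside them, and the zonula occludens proteins tie the strands to actin and to cingulin on the inner side of the membrane. In the epidermis, functional tight junctions lie in the granular layer, where CLDN1 is required for the barrier against water loss.

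The libraries held between 16017502 and 18837807 counts. ALKBH5 itself (chromosome 17, 18183078 to 18209954) was counted 1512 and 1576 times with siControl against 956 and 816 times with siALKBH5. Its level in siALKBH5 was 55.5% of that in siControl (log2 fold change -0.85, SE 0.053), so depletion of the transcript was partial. The keratinocyte identity of the line was checked with 10 marker genes, and 0 of them were at or under 3 counts in all libraries. Their summed level was 18920 and 18500 CPM (counts scaled to a common library size) in siControl and 24390 and 24460 CPM in siALKBH5. Of the 10, 3 were called lower and 4 higher, against 17.3% and 19.3% of all genes tested. KRT5 averaged 7034 CPM in siControl and 11248 CPM in siALKBH5, whereas KRT17, TP63 and ITGB4 were called lower. Of the markers of other cell types, COL1A2, COL3A1 and PDGFRA of 6 fibroblast genes, PTPRC and CD68 of 5 immune genes, PECAM1 and KDR of 4 endothelial genes and TYR and DCT of 5 melanocyte genes were at or under 3 counts in every library. The summed fibroblast level was 21.9 and 22.8 CPM in siControl and 18.7 and 19.1 CPM in siALKBH5, with 2 of 6 genes called lower. These were DCN (log2 fold change -1.25) and LUM (-1.08), while COL1A1, at 267 to 310 counts, was not called. The summed endothelial level was 32.5 CPM in both siControl libraries and 35.0 and 35.5 CPM in siALKBH5, with 1 gene called lower and 1 higher. VWF, at 293 to 501 counts, had a log2 fold change of 0.51, and CDH5, at 147 to 237 counts, of -0.69. The immune level lay between 4.59 and 6.53 CPM with 1 gene called higher. The melanocyte level lay between 11.9 and 14.2 CPM with 0 called, and MITF had 163 to 198 counts. The 4 keratins of simple epithelium, KRT7, KRT8, KRT18 and KRT19, were at a high level. They summed to 8888 and 8628 CPM in siControl and 8683 and 8385 CPM in siALKBH5, with 2 called lower and 2 higher. The mitochondrial share was 10.2% in siControl and 9.63% to 9.64% in siALKBH5. The part of these shifts in the results on junction genes was not tested.

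ALKBH5 depletion left all 9 tight junction transcripts present, and OCLN, the gene of occludin, was the member with the largest fitted fold change, a decrease to 80.7% of the siControl level. F11R and CLDN1 also fell, to 90.9% and 95.9%, and CLDN4 rose to 109%. All 9 genes passed the filter on low counts, and they were tested with the quasi-likelihood test of edgeR among 15075 genes, with adjustment of p over all of them and a call at an adjusted p under 0.05. By that rule 3 members were lower, 1 was higher and 5 were not called. OCLN and F11R were called under each of 12 other settings of the fit, CLDN1 under 4 of them and CLDN4 under 6. Over all genes tested, 17.3% were called lower, 19.3% higher and 36.6% in either direction, so the members' 44.4% lay near the background. Where the study's further requirement of a 1-unit log2 change in either direction was applied, 0 of the 9 members were called, against 2.92% of all genes. The median log2 fold change was 0.020 over the members and -0.0081 over all genes tested, and the median of its absolute size was 0.074 over the members and 0.20 over all genes tested. In bulk RNA, fewer cells that express a gene and less RNA per cell cannot be told apart.

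**Figure D1:**
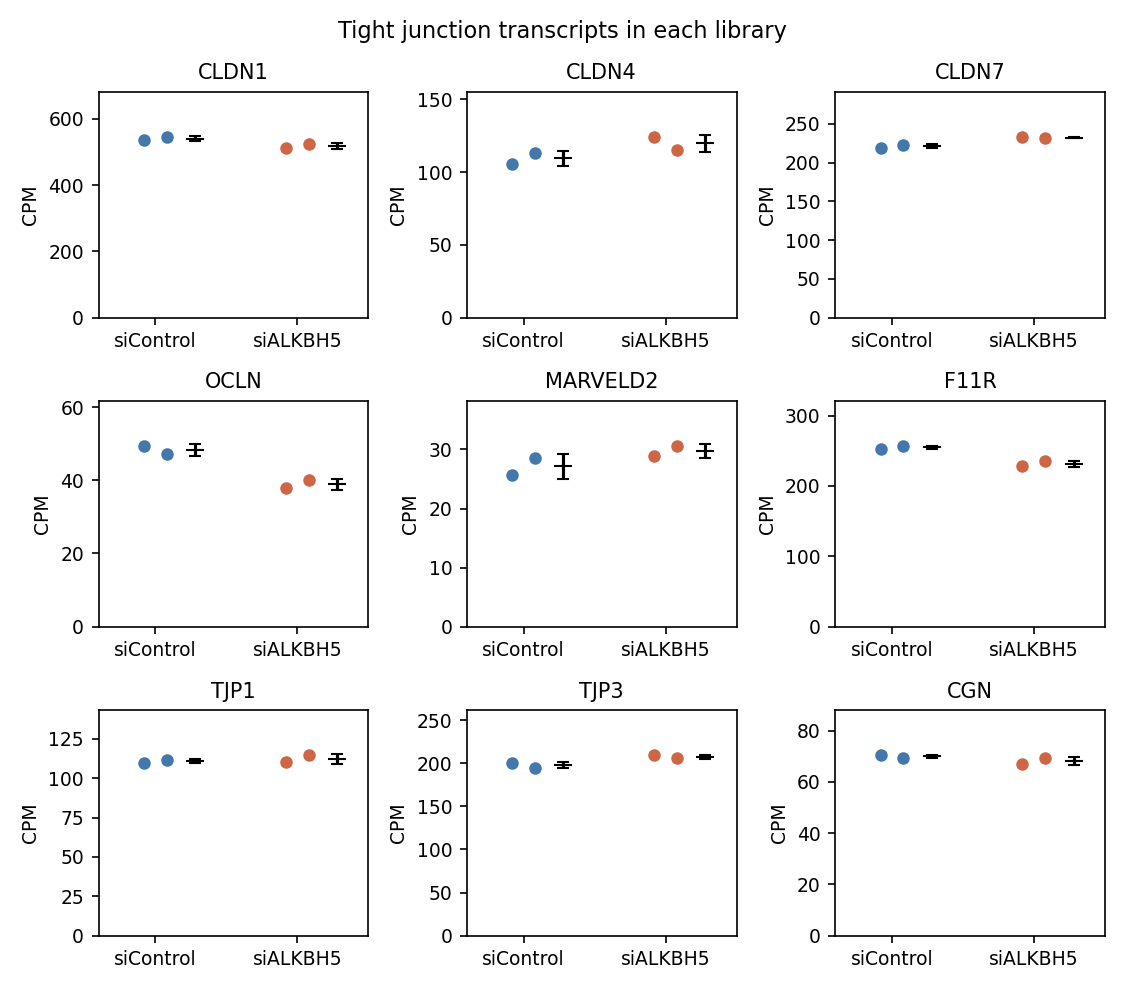
Level of each of the 9 tight junction genes in CPM on axes that start at 0, with 1 point per library and, beside the points, the mean ± SD of the 2 libraries of each group. OCLN lay between 47.1 and 49.3 CPM in siControl and between 37.9 and 40.0 CPM in siALKBH5, while the TJP1 points of the groups overlapped.

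Among the transmembrane proteins, occludin is the founding member of its family and is found along the whole belt. OCLN (chromosome 5, 69492292 to 69558104, plus strand) was counted 795 and 847 times with siControl against 707 and 658 times with siALKBH5. This corresponded to 48.2 ± 1.60 CPM (SD, n = 2) in siControl and 38.9 ± 1.51 CPM in siALKBH5. Each depleted library lay under each control. The log2 fold change was -0.31 (SE 0.066, 95% interval -0.44 to -0.18), with an adjusted p of 0.000303 by edgeR's quasi-likelihood test. It was -0.38 within the table of replicate 1 and -0.24 within that of replicate 2. The decrease was called under each of the 12 other settings tried, with log2 fold changes from -0.35 to -0.27. Of all genes tested, 32.8% had a change at least as large in either direction.

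MARVELD2, also called tricellulin, shares the MARVEL domain with occludin and is concentrated where 3 cells meet. It lies on chromosome 5 (69415065 to 69444330, plus strand) and was counted 413 and 515 times with siControl against 541 and 503 times with siALKBH5. Its level was 27.1 ± 2.11 CPM in siControl and 29.8 ± 1.13 CPM in siALKBH5, and the groups did not overlap. The log2 fold change of 0.13 (SE 0.081, 95% interval -0.034 to 0.29) did not pass the edgeR test (adjusted p = 0.222), and the interval leaves room for a change in either direction. The ratio of the OCLN level to the MARVELD2 level, both as fragments scaled to the listed gene length and the library total (FPKM), was 1.53 and 1.31 in siControl and 1.04 and 1.04 in siALKBH5. The ratio was thus lower in both siALKBH5 libraries, although an exact two-sided permutation test of 2 libraries against 2 cannot give a p under 0.33 and was not run.

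F11R, or JAM-A, is an immunoglobulin-family adhesion molecule that binds its counterpart on the next cell and recruits polarity proteins to the junction. It lies on chromosome 1 (160995211 to 161021348, minus strand) and was counted 4076 and 4616 times with siControl against 4266 and 3864 times with siALKBH5. The level was 255 ± 2.53 CPM in siControl and 232 ± 4.52 CPM in siALKBH5, with both depleted libraries below both controls. The log2 fold change was -0.14 (SE 0.030, 95% interval -0.20 to -0.077), and the decrease was called by edgeR's quasi-likelihood test (adjusted p = 0.000453). It was called under each of the 12 other settings, with values from -0.16 to -0.12. The change was small against the rest of the transcriptome, since 63.5% of the genes tested had a fold change of at least that size in either direction.

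**Figure D2:**
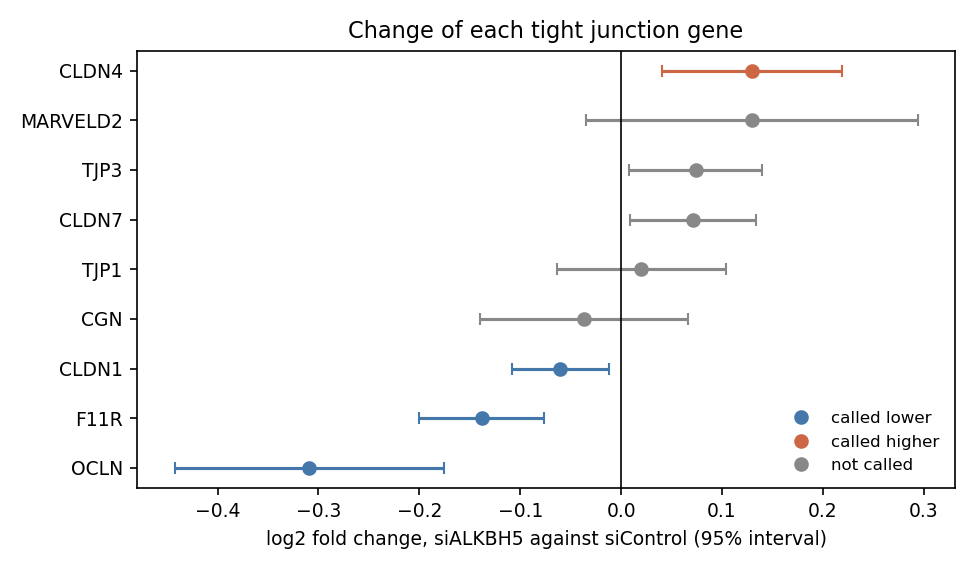
Log2 fold change of each tight junction gene in siALKBH5 against siControl from edgeR, with its 95% interval, coloured by the call at an adjusted p under 0.05. OCLN lies farthest from 0 at -0.31, followed by F11R at -0.14, and the intervals of MARVELD2, TJP1 and CGN include 0.

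The 3 claudins did not move together. CLDN1, the claudin of the epidermal barrier, lies on chromosome 3 (190305701 to 190322475, minus strand) and was counted 8621 and 9794 times with siControl against 9556 and 8623 times with siALKBH5. Its level was 540 ± 6.57 CPM in siControl and 518 ± 8.74 CPM in siALKBH5, a difference of -4.05% without overlap of the groups. Its log2 fold change of -0.060 (SE 0.024, 95% interval -0.11 to -0.012) passed the edgeR test narrowly (adjusted p = 0.0447). The call was lost under 8 of the 12 other settings, which included leaving out siControl replicate 1 (adjusted p = 0.0657), siControl replicate 2 (0.249) or siALKBH5 replicate 1 (0.324) in edgeR's quasi-likelihood test. Adjusted p over the edgeR, DESeq2 and limma fits of those settings ran from 0.00631 to 0.324.

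CLDN4, which is known for limiting the passage of sodium, lies on chromosome 7 (73799542 to 73832693, plus strand) and was counted 1702 and 2035 times with siControl against 2315 and 1898 times with siALKBH5. The level was 109 ± 5.28 CPM in siControl and 120 ± 6.09 CPM in siALKBH5. Both siALKBH5 libraries were above both controls, but the highest siControl library, at 113 CPM, lay close to the lowest siALKBH5 library, at 115 CPM. The log2 fold change was 0.13 (SE 0.044, 95% interval 0.040 to 0.22), with an adjusted p of 0.0192 by edgeR's quasi-likelihood test. It was 0.23 within the table of replicate 1 and 0.028 within that of replicate 2. Without siControl replicate 1 the value was 0.086 (adjusted p = 0.223 by edgeR), and without siALKBH5 replicate 1 it was 0.077 (adjusted p = 0.299 by edgeR), so the call rested on these 2 libraries. Over the 12 other settings it was lost under 6, with adjusted p from 0.00261 to 0.299 across the edgeR, DESeq2 and limma fits.

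CLDN7, a claudin that binds EPCAM and also occurs along the lateral membrane, lies on chromosome 17 (7259903 to 7263983, minus strand) and was counted 3534 and 4009 times with siControl against 4350 and 3812 times with siALKBH5. The level was 221 ± 2.46 CPM in siControl and 232 ± 0.891 CPM in siALKBH5, and the groups did not overlap. Its log2 fold change of 0.071 (SE 0.031) was not called by edgeR (adjusted p = 0.0692). Its 95% interval of 0.0086 to 0.13 is not adjusted for the number of genes tested. CLDN7 overlaps ELP5 on the opposite strand, and the sources used here do not say whether the counting used strand, so reads of their shared stretch may have been split or lost. ELP5 had 439, 542, 558 and 490 counts in the 4 libraries in the order above, 12.9% of those of CLDN7.

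The claudin transcripts were also compared as parts of a whole, by summing the FPKM of 24 claudin genes in each library. The sum was 281 and 286 FPKM in siControl and 276 and 276 FPKM in siALKBH5. CLDN1 made up 52.3% of it in both siControl libraries and 50.2% and 51.2% in siALKBH5, with a mean of 52.3% ± 0.0126 (SD, n = 2) against 50.8% ± 0.707. CLDN7 made up 31.5% ± 0.0249 in siControl and 33.5% ± 0.227 in siALKBH5, and CLDN4 8.25% ± 0.300 and 9.14% ± 0.492. The 3 members therefore supplied most of the claudin RNA in every library, followed by CLDN8 at 3.50% and 2.65% and CLDN12 at 2.28% and 2.05%. Both CLDN7 and CLDN4 held a larger share, and CLDN1, CLDN8 and CLDN12 a smaller one, in each siALKBH5 library than in either siControl library. Such separation is common with so few libraries, since the CPM of 66.3% of all genes tested did not overlap between the groups. Shares of a whole are also tied to each other, so a larger share of some claudins goes with a smaller share of others. These shares depend on the gene length used. With the length of the longest transcript that GENCODE 29 tags as principal, an alternative chosen after the data were seen, CLDN1 held 43.8% and CLDN7 40.5% in siControl, and CLDN7 (42.7%) was level with CLDN1 (42.2%) in siALKBH5.

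**Figure D3:**
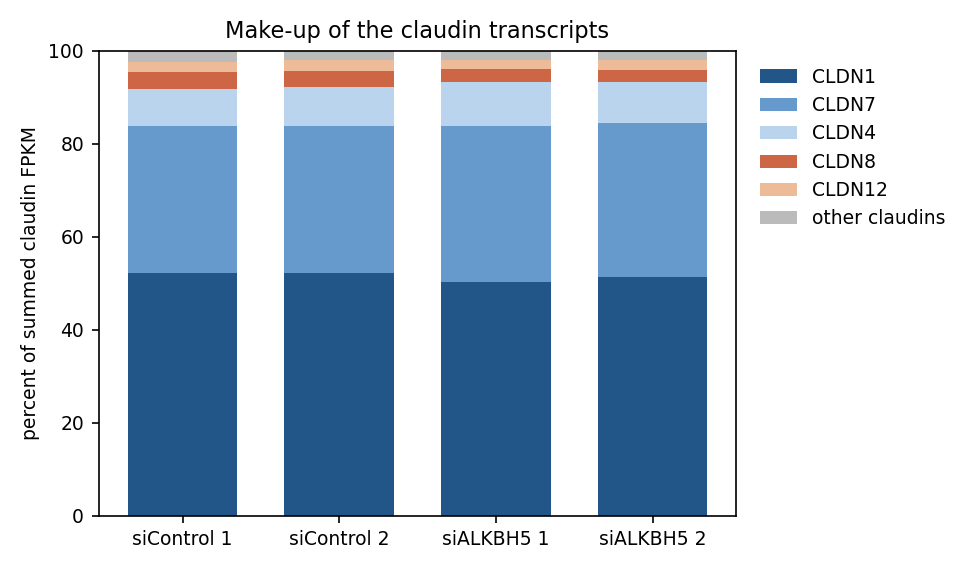
Make-up of the claudin transcripts in each of the 4 libraries, as the percent of the summed FPKM of 24 claudin genes held by CLDN1, CLDN7, CLDN4, CLDN8, CLDN12 and all others. CLDN1 holds 52.3% in the siControl bars and 50.2% and 51.2% in the siALKBH5 bars, and the CLDN7 and CLDN4 segments are taller in siALKBH5.

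Of the plaque proteins, 0 of 3 were called, against 36.6% of all genes tested, too few genes to set this class apart. TJP1 encodes ZO-1, the scaffold that binds claudins, occludin and actin. It lies on chromosome 15 (29699367 to 29968865, minus strand) and was counted 1769 and 2006 times with siControl against 2054 and 1886 times with siALKBH5. Its level was 111 ± 1.20 CPM in siControl and 112 ± 3.28 CPM in siALKBH5, and TJP1 was the 1 member whose groups overlapped. The log2 fold change of 0.020 (SE 0.041, 95% interval -0.064 to 0.10) was not called by edgeR (adjusted p = 0.750), and its sign turned under 4 of the 12 other settings.

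TJP3 encodes ZO-3, the paralogue that is restricted to epithelia. It lies on chromosome 19 (3708109 to 3750813, plus strand) and was counted 3222 and 3508 times with siControl against 3911 and 3391 times with siALKBH5. The level was 197 ± 3.53 CPM in siControl and 208 ± 2.36 CPM in siALKBH5 without overlap, and the log2 fold change of 0.074 (SE 0.032, 95% interval 0.0080 to 0.14) was not called by edgeR (adjusted p = 0.0733). The ratio of the TJP3 level to the TJP1 level, both as FPKM, was 4.87 and 4.67 in siControl and 5.09 and 4.80 in siALKBH5. The ranges of the groups overlapped, so the balance between these paralogues differed by no more than its spread over the libraries.

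CGN encodes cingulin, which links ZO-1 to actomyosin and microtubules. It lies on chromosome 1 (151510510 to 151538692, plus strand) and was counted 1135 and 1249 times with siControl against 1254 and 1140 times with siALKBH5. Its level was 69.9 ± 0.724 CPM in siControl and 68.2 ± 1.51 CPM in siALKBH5, and the log2 fold change of -0.036 (SE 0.051, 95% interval -0.14 to 0.067) was not called by edgeR (adjusted p = 0.619). Over the 9 members the siALKBH5 libraries lay wholly below the siControl libraries for 4 and wholly above them for 4, a share of 88.9% without overlap, against 66.3% of all genes tested.

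On the FPKM scale, which allows levels of different genes to be compared, CLDN1 was the most abundant member at 138 to 150 FPKM over the 4 libraries, followed by CLDN7 at 88.5 to 92.7 FPKM. TJP3 and F11R came next and stood in a different order in each group. F11R (50.2 and 51.0 FPKM) lay above TJP3 (47.7 and 46.5 FPKM) in both siControl libraries, and TJP3 (49.2 and 48.4 FPKM) lay above F11R (44.7 and 45.9 FPKM) in both siALKBH5 libraries. CLDN4 followed at 22.6 to 26.1 FPKM. CGN (10.7 and 10.6 FPKM) lay above TJP1 (9.80 and 9.96 FPKM) in siControl, whereas in siALKBH5 their values overlapped (10.1 and 10.4 FPKM against 9.68 and 10.1 FPKM). OCLN (7.34 and 7.01 FPKM) lay above MARVELD2 (4.81 and 5.37 FPKM) in siControl, and in siALKBH5 they overlapped (5.55 and 5.86 FPKM against 5.35 and 5.64 FPKM). These MARVEL-domain members had the lowest levels of the 9 in every library. Orders between genes depend on the lengths used. With principal transcript lengths, CLDN1 (155 and 157 FPKM) lay above CLDN7 (143 and 145 FPKM) in siControl, and they overlapped in siALKBH5 (146 and 149 FPKM against 150 and 149 FPKM). TJP3 then lay above F11R in all 4 libraries. CGN and TJP1 overlapped in siControl (13.9 and 13.7 FPKM against 13.9 and 14.1 FPKM), and TJP1 lay above CGN in siALKBH5 (13.7 and 14.3 FPKM against 13.1 and 13.5 FPKM). OCLN and MARVELD2 again had the lowest levels. OCLN lay above MARVELD2 in siControl, but MARVELD2 (6.67 and 7.03 FPKM) lay above OCLN (5.83 and 6.15 FPKM) in siALKBH5.

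The promoters of the members were searched for short letter strings of transcription factors with known roles at epithelial junction genes. These were CAGGTG, the E-box bound by the SNAI and ZEB repressors of epithelial genes, TGACTCA, the AP-1 motif, and AACCGGTT, a palindrome bound by Grainyhead-like factors. The search covered both strands of RefSeq windows on GRCh38 that run from 250 bases before a transcript start to 50 bases after it. Of the 9 members, 8 were found there in 14 windows, while F11R had no window and was not searched. The E-box was in 5 of these windows, against 20.6% of all 35116 windows, with 5 matches in CLDN7, 3 in OCLN and 1 each in TJP1 and TJP3. The AP-1 motif was in 1 member window, that of CLDN4, against 4.95% of all windows, and AACCGGTT was in 0 member windows and 0.134% of all windows. The motifs were chosen after results on these genes were known, and a match shows letters, not binding. The stretches around the matches of OCLN, the member with the largest change, 3 of the 5 of CLDN7, the member with the most matches, and that of CLDN4, the 1 member called higher, read as follows on the strand of the gene, 5′ to 3′, with the motif on either strand in capitals. The second CLDN7 stretch holds 2 matches, of which the one on the other strand reads CACCTG.
OCLN, chr5:69492502-69492531, match beginning 33 bases before a start: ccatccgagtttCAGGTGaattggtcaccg
OCLN, chr5:69492645-69492674, match beginning 133 bases before another start: tctaggacgcagCAGGTGggactcgcggcg
OCLN, chr5:69492813-69492839, match beginning 35 bases after that start: tcggtgcggcgtCAGGTGcgcccgcca
CLDN7, chr17:7262596-7262625, match beginning 135 bases before a start: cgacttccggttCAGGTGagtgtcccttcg
CLDN7, chr17:7262481-7262510, first match beginning 20 bases before that start: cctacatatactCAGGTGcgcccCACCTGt
CLDN4, chr7:73830824-73830852, match beginning 161 bases before a start: agactggatagTGACTCAgggacccgggg

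A wider list held 78 other tight junction genes, their partners and regulators, including SNAI, ZEB and Grainyhead-like genes but no AP-1 gene. Of 12 transcription regulators 8 were tested, and 4 were called lower and 1 higher by edgeR's quasi-likelihood test. Over all genes tested, 17.3% were called lower and 19.3% higher. OVOL2 fell by 0.34 (log2 scale, as the following values, adjusted p = 0.000415), GRHL3 by 0.22 (0.0235), GRHL2 by 0.11 (0.0439) and ELF3 by 0.071 (0.0205), whereas OVOL1 rose by 0.28 (0.00178). Of the repressors that bind the E-box, SNAI1 had 2, 3, 4 and 1 counts over the 4 libraries, and ZEB1 and ZEB2 had 1 count in each siControl library and 0 in each siALKBH5 library. SNAI2 was counted 513 and 568 times with siControl against 553 and 479 times with siALKBH5 (log2 fold change -0.11, SE 0.075, adjusted p = 0.270 by edgeR). These repressors were named after their values were seen.

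Over the whole wider list 51 genes were tested, of which 16 were called lower and 10 higher, and 27 were too low to test. The 51.0% called compares with 36.6% of all genes, and the median log2 fold change was -0.071 against -0.0081. With DESeq2 the lower count was 7, and lower calls over all genes numbered 1444 against 2610 with edgeR. Of the list, 0 genes were called with a log2 change of 1 or more in either direction, against 2.92% of all genes tested.

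Of 21 other claudins 6 were tested, and 2 were called lower and 0 higher, a share of 33.3% against 36.6% of all genes tested. CLDN8 was counted 325 and 371 times with siControl against 289 and 247 times with siALKBH5, and fell by 0.42 (SE 0.10, adjusted p = 0.00106 by edgeR). CLDN12 was counted 695 and 784 times with siControl against 681 and 667 times with siALKBH5, and fell by 0.17 (SE 0.069, adjusted p = 0.0450 by edgeR). Of 11 other transmembrane proteins 6 were tested and 2 were called lower, again 33.3%. These were CXADR, the coxsackievirus and adenovirus receptor, which fell by 0.24 (adjusted p = 0.0104 by edgeR), and ILDR1, an angulin of tricellular junctions, which fell by 0.54 (adjusted p = 0.0249 by edgeR) at 58 to 94 counts.

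Among 16 other plaque scaffolds 14 were tested, 5 were called lower and 3 higher, a share of 57.1% against 36.6% of all genes tested. PATJ, of the Crumbs polarity complex, fell by 0.31 (SE 0.057, adjusted p = 5.37e-05 by edgeR), and the tight junction-associated protein TJAP1 fell by 0.31 (adjusted p = 0.000572). Of the PAR6 paralogues, which bind atypical protein kinase C, PARD6A, named after its values were seen, was not called (log2 fold change -0.084, adjusted p = 0.655 by edgeR). PARD6B, at 198 and 277 counts with siControl against 189 and 164 with siALKBH5, fell by 0.47 (adjusted p = 0.0041), whereas PARD6G, at 505 and 598 counts with siControl against 738 and 698 with siALKBH5, rose by 0.34 (adjusted p = 0.000274 by edgeR). AMOT, the angiomotin that joins junctions to Hippo signalling, rose by 0.26 (adjusted p = 0.000184 by edgeR).

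Of 10 kinases and GTPase regulators 9 were tested, and 33.3% were called, against 36.6% of all genes tested. ARHGEF2, known as GEF-H1, a RhoA activator that cingulin holds inactive at junctions, at 1324 and 1398 counts with siControl against 1864 and 1620 with siALKBH5, rose by 0.31 (SE 0.045, adjusted p = 1.21e-06 by edgeR). ARHGAP17 rose by 0.24 (adjusted p = 0.0258), and PRKCI, an atypical protein kinase C that acts with PAR6, fell by 0.14 (adjusted p = 0.00779 by edgeR). YBX3, a Y-box factor that binds the SH3 domain of ZO-1, was 1 of 2 nuclear and RNA partners and fell by 0.11 (adjusted p = 0.00199 by edgeR).

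The claudin-binding glycoproteins and the protease system that cleaves them were all tested, 6 genes in all, and 4 were called higher and 1 lower. Of all genes tested, 19.3% were called higher and 17.3% lower. The membrane serine protease matriptase (ST14), at 5511 and 6116 counts with siControl against 8071 and 7045 with siALKBH5, rose by 0.34 (SE 0.026, adjusted p = 1.06e-12 by edgeR). Its partner protease prostasin (PRSS8) rose by 0.18 (adjusted p = 0.006), and the inhibitors SPINT1 and SPINT2 rose by 0.16 (1.23e-06) and 0.20 (1.38e-06 by edgeR). Proteases and inhibitors thus rose together. EPCAM, the cell adhesion molecule that binds CLDN7, had a log2 fold change of 0.020 (SE 0.038, adjusted p = 0.729 by edgeR).

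**Figure D4:**
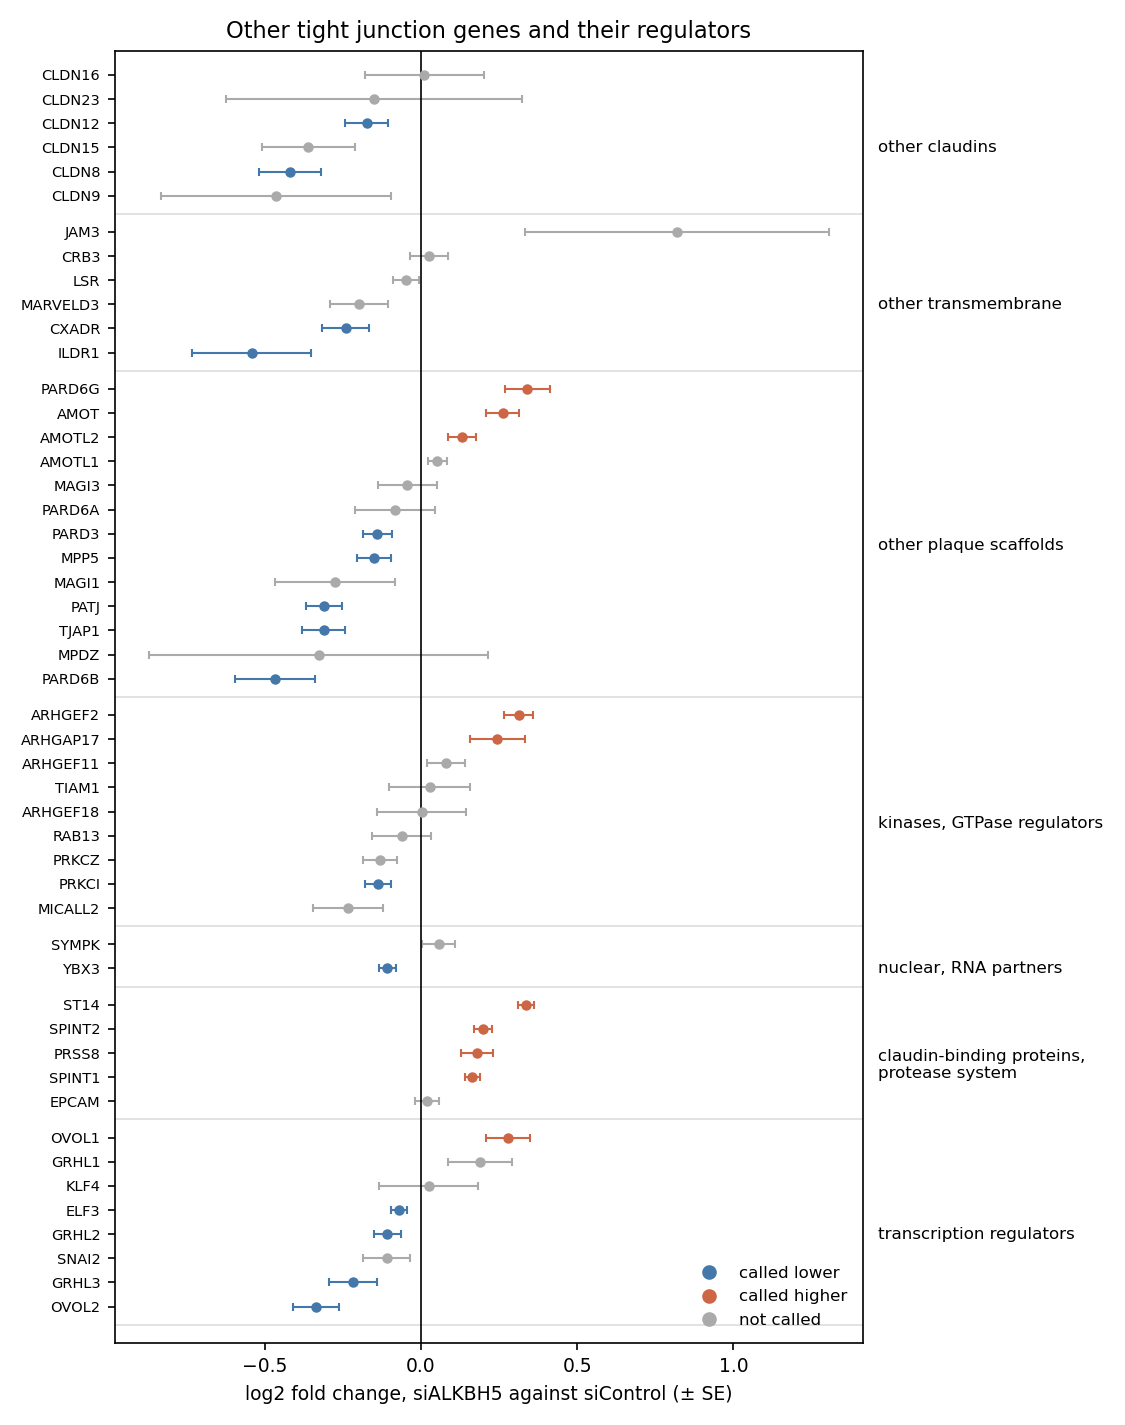
Log2 fold change (± SE) in siALKBH5 against siControl of 49 of the 51 tested genes of the wider tight junction list, in 7 groups by role and coloured by the edgeR call. The lower calls include CLDN8 at -0.42 and PARD6B at -0.47, and the 4 higher calls of the protease group lie between 0.16 and 0.34.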

How the data were processed

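Members and gene lists were chosen with earlier results of these data known. The authors deposited raw counts per gene for 2 siControl and 2 siALKBH5 libraries in 2 tables of 58735 genes. Per the submitters' processing notes, CASAVA, HISAT2 2.0.5, featureCounts 1.5.0-p3 and DESeq2 1.20.0 were used with hg38, and gene coordinates are those of GENCODE 29. Strand-specific counting is not given in the sources used here. The FPKM that the authors deposited had been scaled table by table and were not used. FPKM was recomputed from counts, the listed gene length and the library total. Log2 changes with their p-values, which the authors deposited for 1 library against 1, were left out. Groups were compared in R 4.3.3 by edgeR 4.0.16 (TMM after filterByExpr, glmQLFit, glmQLFTest, Benjamini-Hochberg over all 15075 genes tested, no covariates). DESeq2 1.42.0, limma 3.58.1 (log2 of FPKM plus 1 or plus 0.1, mean FPKM of at least 1), other scaling and filters, a replicate block and each library left out were alternatives. Replicate libraries differed beyond sampling noise (chi-square per degree of freedom 1.71 and 1.81). Named genes were the members, ALKBH5, EPCAM and, in each group of the wider list, up to 5 called genes with the smallest adjusted p and a mean CPM of at least 1. Some genes of the wider list are not reported here by name. The fits were tested on simulated data. A count of 3 or fewer was taken as the floor, which covers counting error only.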

Additional observations from a re-analysis of the deposited data

How the results depend on the processing

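OCLN, F11R and ALKBH5 kept direction and call under each of the 12 other settings, with ALKBH5 between -0.90 and -0.79 on the log2 scale. Of 108 comparisons of a member's fold change with its value under another setting, 88 kept direction and call, 14 lost the call, 2 gained it and 4 changed sign. The sign changes were those of TJP1, at -0.0022 with library size only, -0.00094 and -0.0010 with limma on log2(FPKM + 1) and log2(FPKM + 0.1), and -0.0068 without siALKBH5 replicate 2 (range with a library left out -0.0068 to 0.052). The members called higher numbered 0 with DESeq2, library size only and both limma fits, 3 with the replicate block (adjusted p = 0.0316 for CLDN7 and 0.0379 for TJP3 by edgeR, against up to 0.249 and 0.374 over the other settings) and 0 to 1 with a library left out, while 2 to 3 were called lower with a library left out. The wider list had 7 lower calls with DESeq2, 10 with each limma fit and 9 to 12 with a library left out. Where a log2 change of 1 in either direction was also required, members lower and higher and the wider list lower and higher all numbered 0, and all genes numbered 196 lower and 244 higher. All genes lower numbered 1444 with DESeq2, and all genes higher 1848 and 1838 with the limma fits. CLDN1 held 56.8% of claudin RNA in siControl and 54.4% in siALKBH5 over the 3 members, 56.8% and 55.2% without division by length, and 43.8% and 42.2% with principal transcript lengths. The causes of lost calls were not tested. Same-numbered libraries share a label and a deposited table, and the correlation of their deviations over genes was 0.0418. That correlation took in genes at low counts, so it does not decide whether these libraries were paired. The block was an alternative only and is no evidence of pairing.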
